A study of Homo sapiens with 6 samples.

Results

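The SWI/SNF complexes are chromatin remodelers that use ATP to slide or evict nucleosomes, and this report follows the RNA of the genes that encode them in DLD1 colorectal cancer cells. The 30 genes were taken by symbol and comprise the subunits of the canonical BAF, PBAF and non-canonical BAF (ncBAF) complexes together with 2 BAF-associated zinc finger genes. They are 30 of the 58884 genes in the deposited table, and 28 of them were among the 16059 genes with enough counts to be tested. RNA-seq was performed on DLD1 parental cells and on DLD1 p85β KR-AA mutant cells, with 3 libraries per condition. The mutant cells carry K477A and R478A, which replace basic residues of a nuclear localization sequence in p85β, the PI3K regulatory subunit encoded by PIK3R2. The knock-in is on both copies of the gene, and the parental cells, like their mutant derivatives, carry an oncogenic helical domain mutation in 1 allele of PIK3CA. The study describes 2 independent knock-in clones, and the labels do not say which clone gave which library. The title and genotype of all 3 mutant libraries give R478A, whereas the source name reads R479A for replicate 2 and R480A for replicate 3. The labels do not say whether the replicates were separate cultures, so p-values measure the spread between these libraries, which may be technical.

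Each SWI/SNF complex is built around 1 ATPase, SMARCA2 (BRM) or SMARCA4 (BRG1), with SMARCC and SMARCD proteins, and canonical BAF and PBAF also share SMARCB1 and SMARCE1, which ncBAF lacks. The remaining subunits divide the complexes. ARID1A or ARID1B with a DPF protein marks canonical BAF, ARID2 with PBRM1, BRD7 and PHF10 mark PBAF, and BRD9 with BICRA or BICRAL marks ncBAF. SS18 or SS18L1 is shared by canonical BAF and ncBAF. Several subunits are tumor suppressors in epithelial cancers, ARID1A among them, and BRD7 is a p85-binding protein by earlier reports that the study cites. In the study's own DLD1 cells, loss of BRD7 largely kept p85α, but not p85β, out of the nucleus. The study compared the cell lines to ask what nuclear p85β does to gene expression, and the same comparison is made here subunit by subunit.

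Promoters were read from RefSeq on GRCh38.p14, from 250 bases before to 50 bases after the start of each gene, and 26 of the 30 genes had an entry. The promoters shown are those of 2 genes that were higher, SMARCA2 and PBRM1, and of 3 genes that were lower, SMARCD2, BCL7C and DPF1, in the p85β KR-AA cells under every setting tried. SMARCA2 lies at chr9:2015097-2015396 on the plus strand, PBRM1 at chr3:52685864-52686163, SMARCD2 at chr17:63842636-63842935, BCL7C at chr16:30894028-30894327 and DPF1 at chr19:38229646-38229945, the last 4 on the minus strand. Sequences are written 5′ to 3′ along the gene, and capitals mark matches on either strand to any of 7 motifs: the ETS motif CCGGAAG, the NRF1 motif CGCATGCG, the GC box GGGCGG, the CCAAT box, the CRE TGACGTCA, the TATA box TATAAA and the YY1 motif AAGATGGCG.
SMARCA2 promoter: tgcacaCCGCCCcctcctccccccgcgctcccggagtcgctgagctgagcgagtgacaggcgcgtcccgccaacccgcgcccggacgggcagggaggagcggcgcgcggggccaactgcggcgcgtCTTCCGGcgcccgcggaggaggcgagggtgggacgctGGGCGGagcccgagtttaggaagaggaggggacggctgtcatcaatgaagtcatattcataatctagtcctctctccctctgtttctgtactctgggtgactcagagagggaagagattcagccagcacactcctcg
PBRM1 promoter: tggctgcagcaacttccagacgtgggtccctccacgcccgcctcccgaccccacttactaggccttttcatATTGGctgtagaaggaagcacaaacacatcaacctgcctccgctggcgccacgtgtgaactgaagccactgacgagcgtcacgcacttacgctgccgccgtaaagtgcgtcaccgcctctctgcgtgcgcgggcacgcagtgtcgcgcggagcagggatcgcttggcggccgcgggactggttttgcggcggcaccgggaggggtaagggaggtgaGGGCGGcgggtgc
SMARCD2 promoter: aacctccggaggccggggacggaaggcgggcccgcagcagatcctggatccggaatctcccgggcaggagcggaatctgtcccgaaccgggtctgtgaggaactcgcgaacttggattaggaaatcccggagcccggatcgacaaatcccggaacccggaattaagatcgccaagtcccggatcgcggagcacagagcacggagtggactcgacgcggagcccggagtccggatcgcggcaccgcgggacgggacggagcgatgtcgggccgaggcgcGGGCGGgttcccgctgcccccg
BCL7C promoter: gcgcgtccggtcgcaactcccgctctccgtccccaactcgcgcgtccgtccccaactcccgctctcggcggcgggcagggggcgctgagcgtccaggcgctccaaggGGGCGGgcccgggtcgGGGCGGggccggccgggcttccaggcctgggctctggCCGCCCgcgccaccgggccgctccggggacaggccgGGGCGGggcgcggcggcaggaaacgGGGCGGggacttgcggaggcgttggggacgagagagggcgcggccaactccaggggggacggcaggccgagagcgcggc
DPF1 promoter: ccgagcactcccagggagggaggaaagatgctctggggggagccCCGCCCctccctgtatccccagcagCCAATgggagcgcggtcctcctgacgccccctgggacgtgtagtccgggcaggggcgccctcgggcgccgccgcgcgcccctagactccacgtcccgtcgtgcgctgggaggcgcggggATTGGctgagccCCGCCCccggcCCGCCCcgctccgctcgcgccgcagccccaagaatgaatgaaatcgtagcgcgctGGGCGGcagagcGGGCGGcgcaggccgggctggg
The GC box was in 21 of the 26 promoters, and in 44.6% of all 27305 RefSeq promoters of the same window. Each of the 5 promoters printed held it, whichever way the gene differed between the cell lines. The CCAAT box was in 12 of the 26 and in 35.7% of all promoters, and the capitals show it in PBRM1 and DPF1. SMARCA2 also held the ETS motif, which only BCL7B shared among the 26 and which 10.7% of all promoters held. The YY1 motif was in the promoters of DPF2, SMARCD1 and BCL11B and in 1.85% of all promoters, and the TATA box was in that of BICRA and in 12% of all. No match to the NRF1 motif or the CRE was in the 26 windows, against 2.19% and 1.98% of all promoters. Matches could overlap each other, and they describe letters, not binding. CpG dinucleotides numbered 5 to 55 in the 26 promoters with a median of 32, and the median over all promoters was 14.

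The deposited estimated counts summed to between 20301932 and 20873475 in the parental libraries and to between 20301396 and 26712816 in the mutant libraries. TMM scaling, which centres the bulk of the genes, gave factors of 0.677 to 0.777 to the parental and 1.35 to 1.41 to the mutant libraries. The factors separate the conditions, and scaling by library totals instead shifted the median gene upward by 0.92 on the log2 scale, so the sign of a small fold change depends on the scaling. In a further fit, offsets for gene length and GC content removed any relation of expression with these properties in each library, whatever its source. Levels are given as CPM after TMM scaling, and a count of 3 was worth 0.0818 to 0.218 CPM, a limit that covers counting error only. The conditions also differed in markers of cell type. Of 12 tested colon epithelial markers 8 fell and 3 rose (7 and 4 with the offsets), and their summed level was 57709 to 79753 CPM in parental and 9170 to 10716 CPM in mutant libraries, most of it keratins such as KRT8. Among these markers CEACAM5 (5.66) and CDH1 (1.82) had the highest log2 fold changes, and KRT8 (-3.07) and LGALS4 (-3.17) the lowest. CEACAM5 passed the filter only through the mutant libraries. All 9 tested fibroblast or mesenchymal markers of a list of 12 rose (8 with the offsets). Their sums were 7.65 to 10.5 CPM in parental and 6321 to 7234 CPM in mutant libraries, most of it FN1 and VIM. LUM, COL3A1, DCN and ZEB1 had 0 counts in every parental library, and CDH2 had 0, 0 and 2. These genes passed the filter only through the mutant libraries, so they could only come out as higher. Of 6 tested neuron markers 4 rose and 1, TUBB3, fell, and of 3 tested blood markers 1, CD68, fell, and both of those that fell turned to higher with the offsets. Among the neuron markers that rose, NEFL, NEFM and GAP43 also had 0 counts in every parental library and passed the filter only through the mutant libraries. Over all tested genes 41.6% rose and 32.7% fell. DCX and ELAVL4, which mark neurons, were at 0 in every library. The part of these shifts in the SWI/SNF values was not tested, and in bulk RNA a smaller number of cells of a type cannot be told apart from less RNA per cell.

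Of the 28 tested SWI/SNF genes, 14 rose and 8 fell in p85β KR-AA cells at an adjusted p under 0.01 (edgeR quasi-likelihood F test) and 6 did not pass, with SMARCC1 among those that rose and SMARCD3, BCL7B, DPF2 and BICRA among those that fell changing direction under library totals or with the offsets. Over all tested genes 41.6% rose and 32.7% fell by this rule, so the share of SWI/SNF genes that rose (50%) or fell (28.6%) was near that of all genes. At the study's thresholds, a fold change of at least 3 with an adjusted p under 0.01, 9 SWI/SNF genes were up and 4 were down, against a background of 28.6% up and 17.6% down. All 3 mutant libraries lay above all 3 parental libraries for 16 of the 28 genes and below them for 8, where 47.0% and 36.5% of all tested genes did. The median log2 fold change of the 28 genes was 0.65, with BCL11B at its fitted value or at the floor-based value given below, and that of all tested genes was 0.32. Under scaling by library totals 14 SWI/SNF genes were up and 3 down, and 19 rose and 4 fell at any fold, against 43.9% up, 6.06% down, 57.9% higher and 17.9% lower over all genes. With the offsets 1 was up and 1 down, and 11 rose and 6 fell, against 17.6%, 6.14%, 37.8% and 25.7% of the 15902 genes in that fit. Of the 28 genes, 10 kept their direction and their adjusted p under 0.01 in each of the alternatives that could be fitted for them, 6 of them higher (SMARCA2, ARID1A, SS18, SS18L1, ARID2 and PBRM1) and 4 lower (SMARCB1, SMARCD2, BCL7C and DPF1). Of those that kept both, ARID2 passed the filter only through the mutant libraries. A further 9 changed direction under at least 1 alternative, and they are named as such where they are described.

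**Figure D1:**
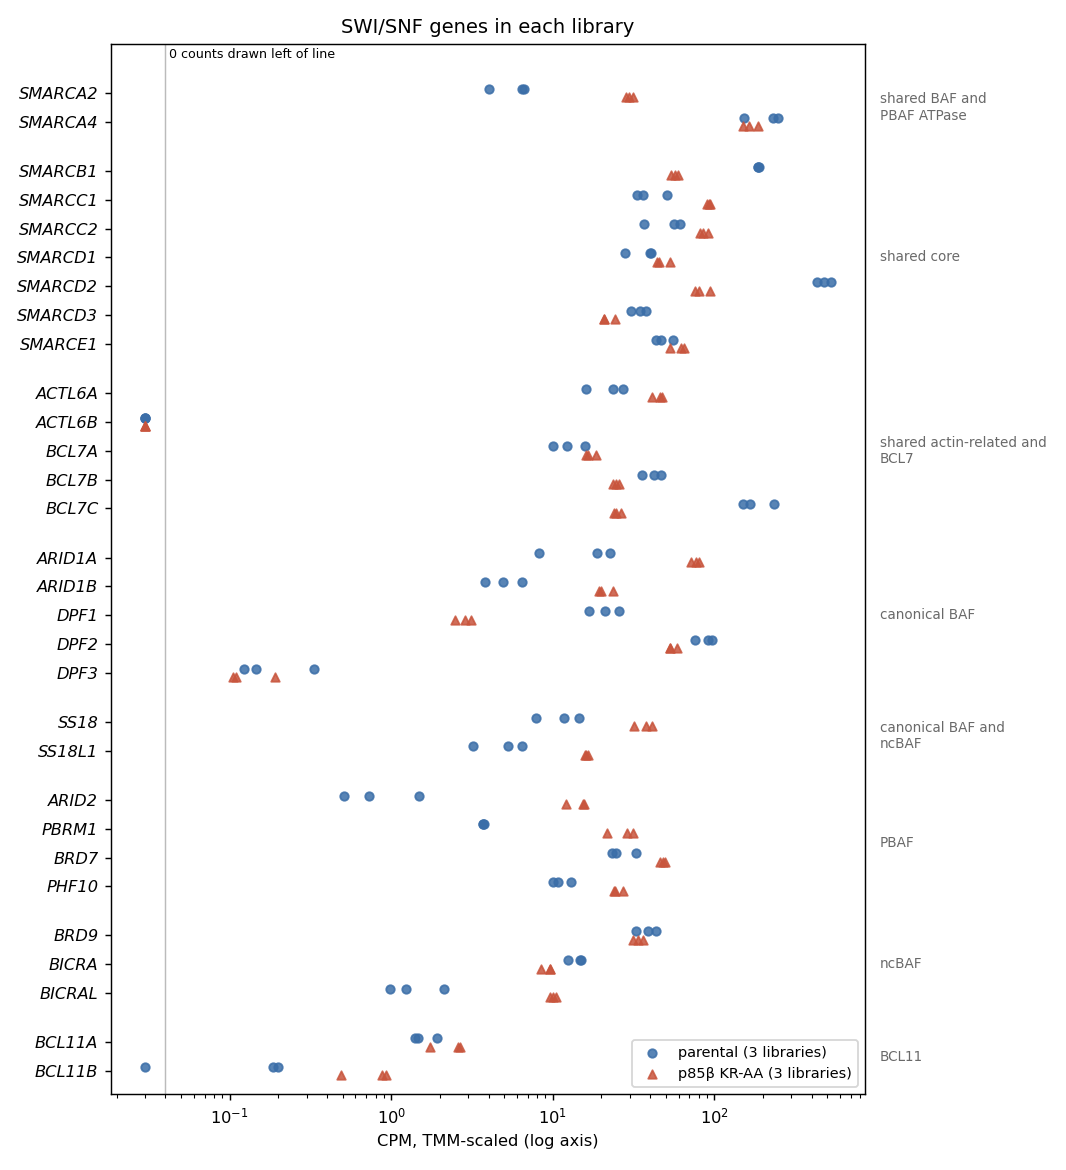
TMM-scaled CPM (log axis) of the 30 SWI/SNF genes, grouped by role, in the 3 parental libraries (circles) and the 3 p85β KR-AA libraries (triangles). ARID2, PBRM1, SMARCA2 and BICRAL stand to the right in all mutant libraries, SMARCD2, BCL7C and DPF1 stand to the left, and ACTL6B has 0 counts in all libraries.

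Among the ATPases, SMARCA2 rose while SMARCA4 did not pass the test. SMARCA2 was at 6.44, 4.01 and 6.66 CPM in the parental libraries and at 29.5, 31.5 and 28.3 CPM in the mutant libraries. The groups did not overlap, and the log2 fold change was 2.38 (SE 0.20, adjusted p = 2.66e-07), a 5.19-fold rise. SMARCA4 was at 246, 153 and 232 CPM in parental and at 164, 151 and 185 CPM in mutant libraries, and the ranges overlapped. Its log2 fold change of -0.33 (SE 0.17, adjusted p = 0.0886) turned to 0.58 under scaling by library totals and to 0.09 with the offsets. SMARCA2 stayed higher under both, at 3.29 and 0.83. Within a library the ATPases can be set against each other per length, as TPM, which does not depend on the scaling. SMARCA2 was 0.0246, 0.0246 and 0.0270 times SMARCA4 in the parental libraries and 0.169, 0.196 and 0.143 times in the mutant libraries. SMARCA4 therefore made up most of the ATPase RNA throughout, and the SMARCA2 share was 2.48% ± 0.13 (SD, n = 3) in parental and 14.4% ± 1.93 (SD, n = 3) in mutant cells.

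The core genes, shared by canonical BAF and PBAF and in part by ncBAF, moved in both directions: of 7 genes SMARCC1 and SMARCC2 rose, and SMARCB1, SMARCD2 and SMARCD3 fell. SMARCD1 and SMARCE1 did not pass, but did so as higher under library totals and with at least 10 counts in every library. With length and GC content offset, SMARCE1 passed as lower and SMARCD3 as higher, and SMARCC1 changed sign without passing. SMARCD2 encodes 1 of 3 alternative 60 kDa subunits that link the complex to transcription factors. It was the most abundant SWI/SNF gene of the parental cells per length, at 197, 157 and 171 TPM. As CPM it was at 525, 480 and 429 in the parental and at 80.7, 76.3 and 93.4 in the mutant libraries. No mutant library came near the lowest parental library, and the counts themselves fell, from 7908, 6591 and 6954 to 2958, 2190 and 2563. The log2 fold change was -2.52 (SE 0.14, adjusted p = 8.82e-09), -1.59 under scaling by library totals and -1.71 with the offsets. It was the only SWI/SNF gene still past the fold limit on the lower side with the offsets.

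SMARCB1, the small core subunit lost in rhabdoid tumors, was at 187, 189 and 187 CPM in parental and at 57.1, 53.8 and 59.9 CPM in mutant libraries. These are among the tightest replicates of the group, and its log2 fold change was -1.72 (SE 0.12, adjusted p = 4.44e-08). It stayed lower at -0.80 under library totals and at -0.30 with the offsets (adjusted p = 0.0077), so its size depended on the setting more than its direction. SMARCD3, a subunit known from heart and muscle, was at 34.3 ± 3.86 CPM in parental and 21.9 ± 2.06 CPM in mutant cells (SD, n = 3), and its log2 fold change of -0.64 became 0.29 under library totals and 0.85 with the offsets. SMARCD3 overlaps CHPF2 on the opposite strand, which had a mean of 481 counts in parental and 1317 in mutant libraries. SMARCD1, the broadly expressed form, was at 40.5, 27.9 and 39.7 CPM in parental and at 44.3, 45.3 and 52.9 CPM in mutant libraries, with a log2 fold change of 0.40 (SE 0.17, adjusted p = 0.0426). The libraries of the conditions did not overlap for SMARCD1, which did not pass here but passed under library totals at 1.31 and with the offsets at 0.68. The scaffold subunits SMARCC1 and SMARCC2, which hold the core together, had log2 fold changes of 1.21 (SE 0.16, adjusted p = 1.71e-05) and 0.74 (SE 0.18, adjusted p = 0.00195), though SMARCC1 turned to -0.37 with the offsets while SMARCC2 stayed at 0.41. SMARCC2 overlaps MYL6 on the opposite strand, a gene with a mean of 27542 counts in parental and 11761 in mutant libraries, and whether reads were counted by strand is not given in the sources used here. SMARCE1, a DNA-binding core subunit, was at 48.5 ± 5.99 CPM and 60.1 ± 5.93 CPM (SD, n = 3) with overlapping libraries, and its log2 fold change of 0.31 turned to -1.53 with the offsets and passed there as lower (adjusted p = 1.12e-07).

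**Figure D2:**
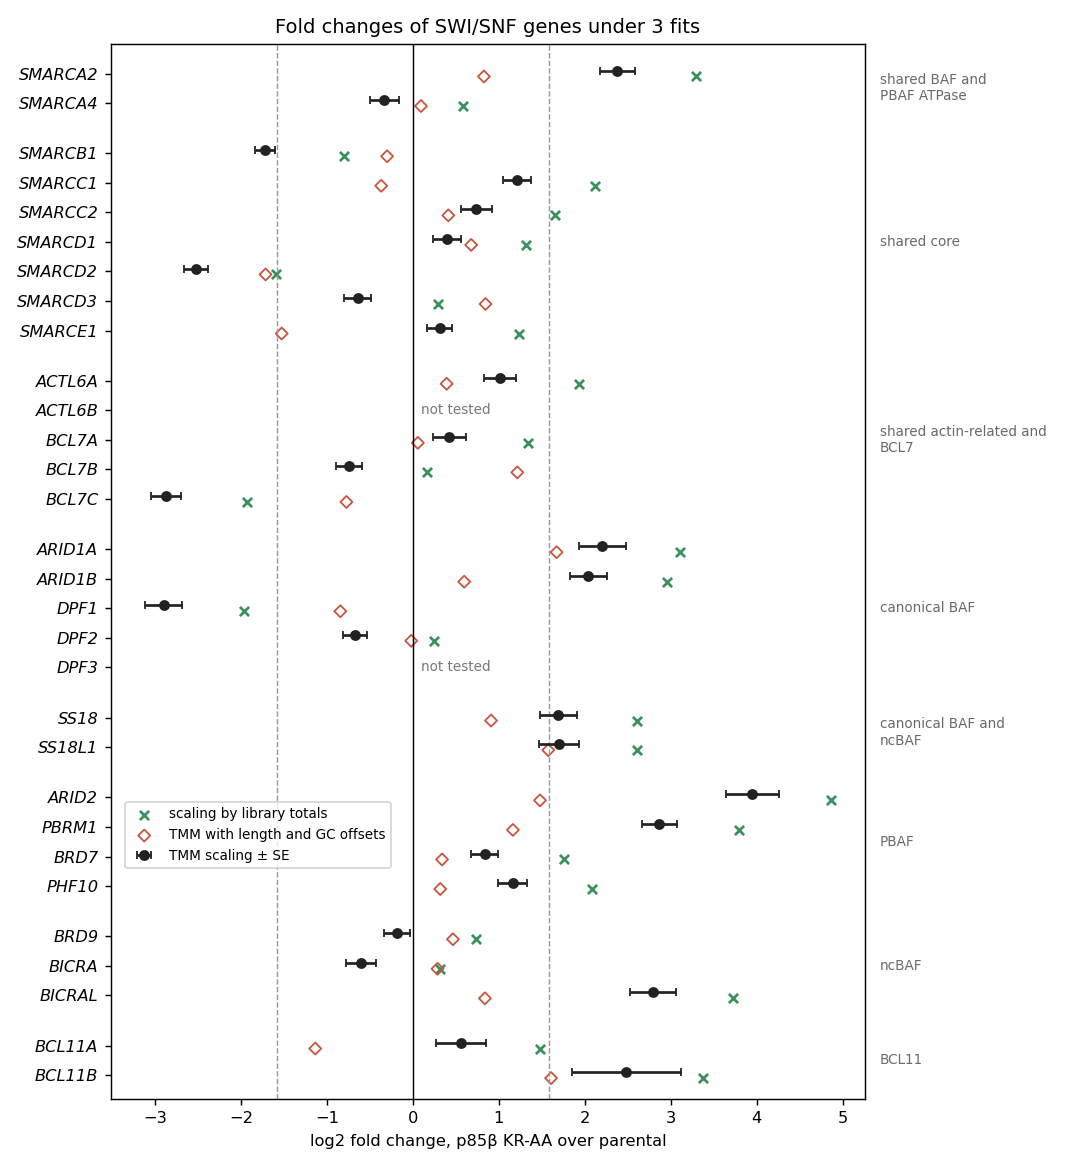
Log2 fold change (p85β KR-AA over parental) of each tested SWI/SNF gene with TMM scaling (circles, bars are SE, n = 3 per condition), with scaling by library totals (crosses) and with TMM and offsets for length and GC content (diamonds); dashed lines mark a fold change of 3. Library totals place each gene further right, whereas the offsets draw most genes toward 0 and move SMARCA4, SMARCC1, SMARCD3, SMARCE1, BCL7B, BRD9, BICRA and BCL11A across it.

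The BCL7 proteins are small subunits of all 3 complexes, and BCL7C fell most among them. BCL7B, also lower, changed sign under library totals, without passing, and passed as higher with the offsets. BCL7C was at 167, 234 and 149 CPM in parental and at 24.1, 24.8 and 26.3 CPM in mutant libraries, a 7.32-fold fall. Its log2 fold change was -2.87 (SE 0.18, adjusted p = 1.57e-08), -1.93 under library totals and -0.77 with the offsets, and the parental libraries differed among themselves far less than they differed from the mutant ones. BCL7B was at 41.4 ± 5.54 CPM in parental and 24.6 ± 0.952 CPM in mutant cells (SD, n = 3), and its log2 fold change of -0.75 turned to 0.17 under library totals and to 1.21 with the offsets. BCL7A was at 12.7 ± 2.93 CPM and 17.1 ± 1.3 CPM (SD, n = 3), with a log2 fold change of 0.42 that did not pass (adjusted p = 0.0557), but passed at 1.34 under library totals and at 0.62 with at least 10 counts in every library. ACTL6A, the actin-related subunit of dividing cells, was at 16.0, 23.6 and 27 CPM in parental and at 47.5, 45.9 and 41.0 CPM in mutant libraries. It rose by 1.01 on the log2 scale (SE 0.19, adjusted p = 0.000262), with 0.39 under the offsets (adjusted p = 0.016). ACTL6A overlaps MRPL47 on the opposite strand, which had a mean of 288 counts in parental and 441 in mutant libraries. ACTL6B, the neuronal counterpart of ACTL6A, had 0 counts in all 6 libraries, which allows a level of up to 0.0818 to 0.218 CPM depending on the library.

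Canonical BAF subunits fell into 2 that rose and 2 that fell, with DPF2 changing sign, without passing, under library totals. ARID1A, the large DNA-binding subunit, was at 22.5, 8.16 and 18.7 CPM in parental and at 76.6, 71.3 and 80.2 CPM in mutant libraries. Parental replicate 2 was the lowest by far, yet no parental library approached the mutant range. The log2 fold change was 2.20 (SE 0.27, adjusted p = 7.66e-06), between 1.85 and 2.48 with any 1 library left out, and 1.67 with the offsets. ARID1A was the only SWI/SNF gene above a 3-fold rise at an adjusted p under 0.01 with the offsets. ARID1B, its alternative, was at 3.79, 4.92 and 6.48 CPM in parental and at 23.6, 19.8 and 19.3 CPM in mutant libraries. It rose by 2.04 on the log2 scale (SE 0.22, adjusted p = 1.75e-06), but with the offsets its log2 fold change was 0.60 and did not pass (adjusted p = 0.031).

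The DPF proteins read acetylated histone tails through paired PHD fingers and are exchanged between cell types. DPF1, the form associated with neurons, was at 25.5, 20.9 and 16.7 CPM in parental and at 2.86, 3.10 and 2.48 CPM in mutant libraries. The counts fell as well, from 384, 287 and 271 to 105, 89 and 68. Its log2 fold change of -2.90 (SE 0.22, adjusted p = 7.21e-08) was the lowest of the 28, with -1.97 under library totals and -0.84 with the offsets. DPF2, the widely expressed form, was at 87.7 ± 10.8 CPM in parental and 55.0 ± 3.30 CPM in mutant cells (SD, n = 3), and its log2 fold change of -0.67 was 0.25 under library totals and -0.02 with the offsets. DPF3 had counts of 5, 2 and 2 in parental and 7, 3 and 3 in mutant libraries and was not tested. SS18 and SS18L1, which occur in canonical BAF and ncBAF, rose together. SS18 was at 7.90, 11.8 and 14.5 CPM in parental and at 37.6, 41.2 and 31.7 CPM in mutant libraries, and SS18L1 was at 5.25, 3.20 and 6.42 CPM and at 16.6, 15.9 and 15.9 CPM. Their log2 fold changes were 1.69 (SE 0.21, adjusted p = 9.48e-06) and 1.70 (SE 0.23, adjusted p = 1.96e-05), and 0.91 and 1.58 with the offsets. Neither gene had a mutant library within the parental range.

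All 4 PBAF genes rose, ARID2 and PBRM1 past the 3-fold limit and BRD7 and PHF10 below it, and with 4 genes this count was not tested against the background of 41.6%. ARID2, the DNA-binding subunit that defines PBAF, was low in parental cells, with 11, 7 and 24 counts, and had 571, 444 and 331 counts in the mutant libraries. With 7 counts in parental replicate 2, ARID2 passed the filter only through the mutant libraries. As levels these were 0.731, 0.510 and 1.48 CPM and 15.6, 15.5 and 12.1 CPM, and the lowest mutant library was far above the highest parental one. The log2 fold change of 3.95 (SE 0.31, adjusted p = 1.26e-07) was the highest of the 28, with 4.86 under library totals and 1.48 with the offsets. Without parental replicate 3, the highest parental library, or another single library, it was between 3.66 and 4.47. PBRM1, the subunit with a row of bromodomains that bind acetylated histones, was at 3.72, 3.71 and 3.76 CPM in parental and at 28.9, 31.2 and 21.6 CPM in mutant libraries. Its log2 fold change was 2.87 (SE 0.20, adjusted p = 4.29e-08), 3.79 under library totals and 1.16 with the offsets. PBRM1 lies opposite GNL3, which had a mean of 293 counts in parental and 1668 in mutant libraries, and opposite UQCC5, which had 367 and 127.

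BRD7, a bromodomain subunit and p85 partner, was at 23.4, 24.5 and 32.6 CPM in parental and at 49.6, 48.3 and 45.8 CPM in mutant libraries. It rose by 0.84 on the log2 scale (SE 0.16, adjusted p = 0.000318), and with any 1 library left out the log2 fold change stayed between 0.74 and 0.96. With the offsets it was 0.34 (adjusted p = 0.018) and did not pass. BRD7 overlaps ADCY7 on the opposite strand, with a mean of 303 counts in parental and 1366 in mutant libraries, so without strand the reads of the genes cannot be told apart where they overlap. PHF10, a PHD finger subunit that takes the place of the DPF proteins, was at 10.1, 10.7 and 12.9 CPM in parental and at 24.3, 27.2 and 24 CPM in mutant libraries. Its log2 fold change was 1.16 (SE 0.17, adjusted p = 3.01e-05) and 0.32 with the offsets (adjusted p = 0.058). PHF10 likewise overlaps C6orf120 on the opposite strand, with a mean of 134 counts in parental and 349 in mutant libraries. Summed over the 4 genes, PBAF RNA was at 37.9 to 50.7 CPM in parental and at 104 to 122 CPM in mutant libraries.

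The ncBAF genes did not move as a group, with BICRAL higher, BICRA lower and BRD9 not passed. BICRA changed sign, without passing, under library totals and with the offsets. BRD9, the bromodomain subunit that defines ncBAF, was at 38.8, 32.9 and 43.5 CPM in parental and at 31.3, 33.8 and 36.2 CPM in mutant libraries. The ranges overlapped, and the log2 fold change of -0.19 (SE 0.15, adjusted p = 0.265) was 0.73 under library totals and 0.47 with the offsets. BICRA, a scaffold of ncBAF, was at 14.0 ± 1.38 CPM in parental and 9.22 ± 0.668 CPM in mutant cells (SD, n = 3), with a log2 fold change of -0.61 (SE 0.17, adjusted p = 0.00611) that became 0.31 under library totals and 0.29 with the offsets. BICRAL had 32, 17 and 16 counts in parental and 384, 289 and 265 counts in mutant libraries. As CPM these were 2.13, 1.24 and 0.987 against 10.5, 10.1 and 9.66, and the groups did not overlap. The log2 fold change was 2.79 (SE 0.27, adjusted p = 8.07e-07), and with the offsets it was 0.84 and did not pass (adjusted p = 0.013). Of the BAF-associated zinc finger genes, known from blood and brain development, BCL11A was at 1.59 ± 0.283 CPM and 2.34 ± 0.514 CPM (SD, n = 3) with overlapping libraries, and its log2 fold change of 0.56 turned to -1.14 with the offsets. BCL11B had 3, 0 and 3 counts in parental and 34, 14 and 24 counts in mutant libraries, so it passed the filter only through the mutant libraries. Against the highest CPM that 3 counts gave in a parental library (0.218), its mutant mean was 3.49-fold higher, which is not a strict bound. With the offsets its log2 fold change was 1.61 and did not pass (adjusted p = 0.038).

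Paralogs were set against each other in each library, as a ratio of TPM, since this ratio does not change with the scaling of the library. Most pairs are alternatives for the same seat in a complex, but BRD9 and BRD7 belong to ncBAF and PBAF. Of 14 pairs, 11 had more than 3 counts of each gene in every library, and in 9 of these the ratio in the mutant libraries lay wholly on one side of the parental ratios. The share of pairs that lay apart was not computed over all genes. Of single tested genes, 47.0% lay wholly above and 36.5% wholly below in the mutant libraries, so the count of 9 is not read as particular to these pairs. The exact permutation test (two-sided) cannot go below p = 0.1 with 3 against 3 libraries, and the 9 pairs were at that limit, with an adjusted p of 0.122 over the 11 pairs. The SMARCD2 to SMARCD1 ratio was 17.5, 23.2 and 14.5 in parental and 2.45, 2.27 and 2.38 in mutant libraries, a 7.64-fold fall. SMARCD2 thus went from 86.6% ± 0.72 to 56.1% ± 0.78 of the SMARCD RNA per length (SD, n = 3), and SMARCD1 from 4.88% ± 1.08 to 23.7% ± 0.60. The BICRAL to BICRA ratio was 0.126, 0.0874 and 0.0586 in parental and 0.961, 0.917 and 1.00 in mutant libraries, an 11.1-fold rise. The parental cells therefore had mostly BICRA RNA, and the mutant cells had nearly equal amounts of both. The BCL7C to BCL7B ratio was 2.43, 4.06 and 1.98 in parental and 0.600, 0.643 and 0.632 in mutant libraries, so the more abundant of the pair was BCL7C in each parental and BCL7B in each mutant library. The DPF1 to DPF2 ratio fell 4.66-fold, from 0.400, 0.417 and 0.276 to 0.0814, 0.0880 and 0.0636.

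The ratios of ARID1B to ARID1A and of SS18L1 to SS18 overlapped between the conditions. ARID1B was 0.134, 0.480 and 0.275 times ARID1A in parental and 0.245, 0.221 and 0.192 times in mutant libraries, and the parental spread exceeded the difference. SS18L1 made up 25% ± 8.15 of the SS18 pair in parental and 24.9% ± 2.44 in mutant cells (SD, n = 3). With the offsets for length and GC content, the pair differences of SMARCA2 over SMARCA4 (0.73 on the log2 scale), BICRAL over BICRA (0.55), SMARCD2 over SMARCD1 (-2.39), DPF1 over DPF2 (-0.82) and BCL7C over BCL7B (-1.99) kept their sign. The other 4 pairs that were apart changed sign, namely SMARCC2 over SMARCC1, SMARCD3 over SMARCD1, BCL7A over BCL7B and BRD9 over BRD7. Without the offsets the differences of the pairs that kept their sign were 2.71 for SMARCA2 over SMARCA4 and 3.40 for BICRAL over BICRA. They were -2.92 for SMARCD2 over SMARCD1, -2.22 for DPF1 over DPF2 and -2.12 for BCL7C over BCL7B. Among these pairs, that of BCL7C over BCL7B moved least with the offsets and that of BICRAL over BICRA moved most.

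**Figure D3:**
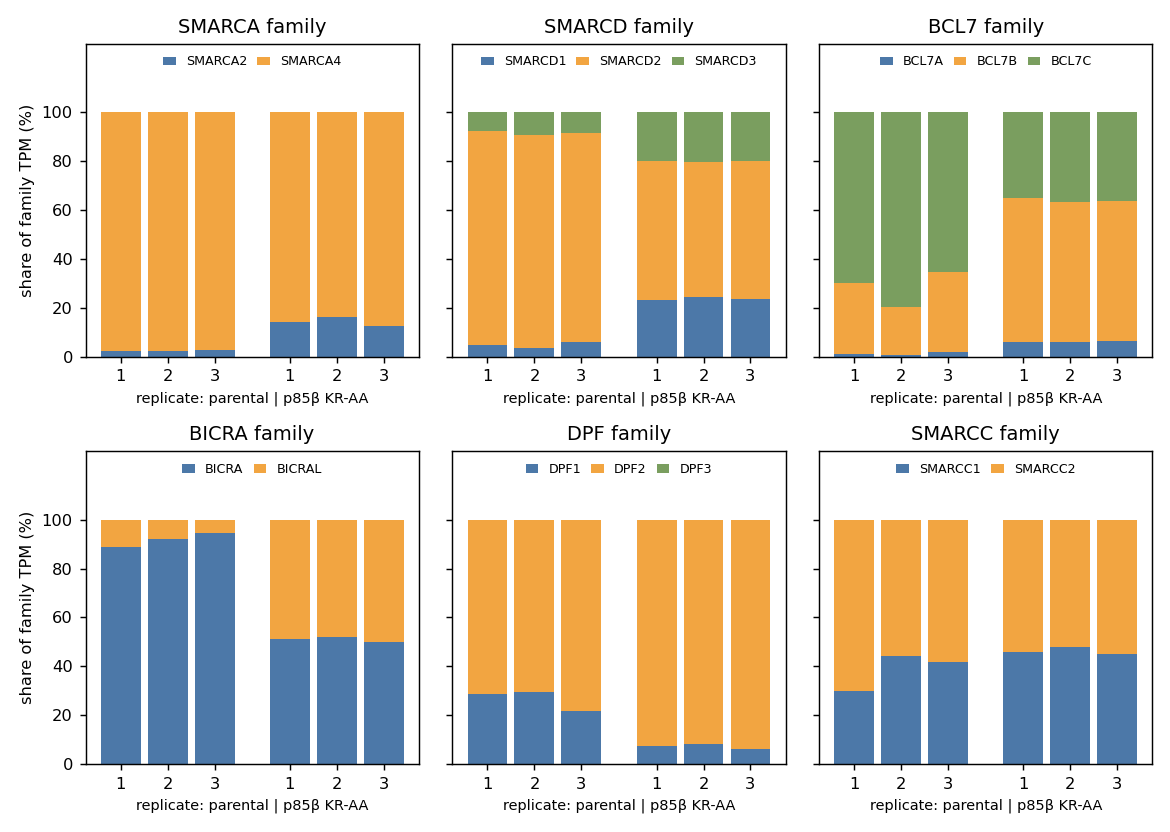
Share of each gene in the summed TPM of its family (percent), per library, for 6 SWI/SNF families, with parental replicates 1 to 3 on the left and p85β KR-AA replicates 1 to 3 on the right of each panel. SMARCD2 takes 86.6% of its family in parental and 56.1% in mutant cells on average, and BICRAL 8.24% and 49.0%.

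Log2 fold changes were higher in long, GC-poor SWI/SNF genes than in short, GC-rich ones. Across the 28 genes the log2 fold change correlated with the logarithm of gene length at Pearson's r = 0.68 and Spearman's rho = 0.69, and with GC content at r = -0.70 and rho = -0.73. These are descriptions across genes, which are not independent replicates, and the points share the same 6 libraries. Over all tested genes rho was 0.45 for length and -0.59 for GC content, so the relation was not limited to chromatin genes. Of the 6 SWI/SNF genes of at most 2000 bases 5 fell and 1, ACTL6A, rose, where 52.2% of all 5087 tested genes of this length fell and 19.4% rose. Of the 14 genes over 5000 bases 9 rose and 1, BICRA, fell, where 73.1% of all 3301 such genes rose and 9.09% fell. The 4 PBAF genes lay between 40.0% and 45.2% GC, whereas BCL7C and DPF1 lay at 62.5% and 62.0% GC. SMARCD2, at 2716 bases, fell although the median gene of over 2000 and up to 5000 bases had a log2 fold change of 0.43. The part of length, GC content or RNA quality in these values was not tested beyond the offsets given for each gene.

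Other families of ATP-dependent remodelers were read beside SWI/SNF. Of 11 ISWI genes, which encode nucleosome-spacing ATPases and their partners, 9 rose and 0 fell (4 and 1 with the offsets), with BAZ2B (4.18) and BPTF (4.14) the highest on the log2 scale and POLE3 (-0.08, adjusted p = 0.65) and CHRAC1 (-0.42, adjusted p = 0.026) the lowest. POLE3 and CHRAC1 turned to 0.84 and 0.50 under library totals, and both were among the shorter genes of the list. Of 21 NuRD and CHD genes 13 rose and 4 fell (11 and 8 with the offsets), from CHD6 (4.34) and CHD1 (4.23) down to MTA2 (-1.50) and MBD3 (-2.41). CHD1, like BAZ2B and BPTF, passed the filter only through the mutant libraries. Of 28 genes of the INO80, SRCAP and TIP60 complexes, which exchange histone H2A.Z or acetylate histones, 12 rose and 15 fell (9 and 14 with the offsets), from TRRAP (2.79) and INO80D (2.68, but -0.11 with the offsets) to TFPT (-2.60) and RUVBL2 (-3.16). In all, 34 of 60 genes of these lists rose and 19 fell, next to 14 and 8 of the 28 SWI/SNF genes, and the differences between families were not tested. With the offsets 24 rose and 23 fell, next to 11 and 6 of the SWI/SNF genes. The median length of the ISWI genes was 6178 bases, that of the INO80, SRCAP and TIP60 genes 2506 bases, and that of the 30 SWI/SNF genes 4534.5 bases.

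**Figure D4:**
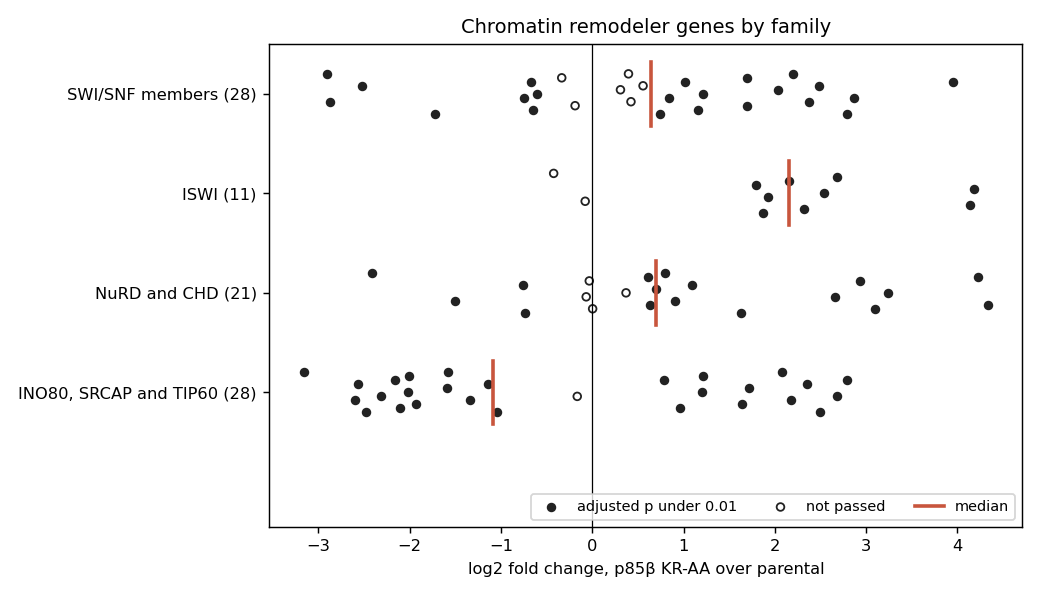
Log2 fold change (p85β KR-AA over parental) of the tested genes of 4 families of chromatin remodelers, with 1 point per gene, filled where the adjusted p was under 0.01, and a vertical line at the median of the family. The SWI/SNF median is 0.65, the ISWI median 2.16, the NuRD and CHD median 0.69 and the INO80, SRCAP and TIP60 median -1.09.

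The knock-in gene, its paralog PIK3R1 and the genes of proteins that the study links to nuclear p85, by its own data or by citation, were read in the same fit as BRD7. PIK3R2 itself was at 22.1 ± 11.5 CPM in parental and 11.6 ± 6.29 CPM in mutant cells (SD, n = 3), a log2 fold change of -0.93 that did not pass (adjusted p = 0.0558), and a change of codons cannot be checked from counts. Of the 6 genes of this list 4 rose and 1 fell, and with the offsets 2 rose and 1 fell, EZH2 turning from 0.73 to -0.16 and PIK3R2 to 0.31, where 41.6% of all tested genes rose and 32.7% fell without the offsets. USP7 went from 2.02 to 0.30 with the offsets. PIK3R1, which encodes p85α, rose by 3.79 on the log2 scale (SE 0.27, adjusted p = 5.27e-08), and EZH1, a methyltransferase for H3K27, rose by 2.65 (SE 0.20, adjusted p = 6.92e-08). With the offsets PIK3R1 was at 1.52 and EZH1 at 1.79. These are RNA values, whereas the study found less EZH1 and EZH2 protein in the knock-in clones than in parental cells. For mRNA, it reported no effect of p85β knockout on EZH1 or EZH2 in DLD1 cells with only the mutant PIK3CA allele. XBP1, a transcription factor of the unfolded protein response, had a log2 fold change of -0.50 (SE 0.13, adjusted p = 0.00379) that turned to 0.42 under library totals. The 0.84 of BRD7 lay between these values.

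The replicates of the parental cells were less alike than those of the mutant cells. Over 27 tested SWI/SNF genes, leaving out BCL11B, the highest parental library was 1.53 times the lowest at the median and 2.90 times at most, in ARID2. In the mutant libraries these values were 1.15 and 1.53. Parental replicate 2 was the lowest parental library for 13 of the 27 genes, among them ARID1A, SMARCA4 and SMARCA2. Leaving it out moved the log2 fold change of SMARCA4 to -0.55 (adjusted p = 0.0013), so that SMARCA4 passed as lower, and that of ARID1A to 1.85.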

How the data were processed

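RNA-seq of 3 DLD1 parental and 3 p85β KR-AA libraries was analysed, grouped by genotype and replicate number in the labels. The study's methods describe paired-end reads trimmed with SeqPrep and Sickle. The submitters' processing notes list HISAT2 2.1.0, RSEM 1.3.1, DESeq2 1.24.0 and hg18, without their roles. The authors deposited estimated counts (expected counts, not normalized) per Ensembl gene, and a gene length, which is another kind of value. Counts were rounded to whole numbers, since the planned test assumed whole counts. Every sample column was used.

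The test was the quasi-likelihood F test of edgeR 4.0.16 (R 4.3.3) after TMM scaling, without covariates, on the 16059 genes that passed filterByExpr (count of 10, total of 15), with Benjamini-Hochberg adjustment. The standard error was the log2 fold change divided by the root of F. Symbols and GC content came from GENCODE release 44 on GRCh37 by Ensembl identifier, for 56745 of 58884 genes. Levels between genes were compared per length, as TPM within a library. Sums over a list, and the genes said to carry a sum, are in CPM, in which long genes weigh more. The SWI/SNF genes and all other lists were chosen with earlier results of these data known, so they received no set test. All 30 are named. From the remodeler lists and the colon epithelial markers the 2 highest and 2 lowest fold changes are named, and from the list of p85 and its partners all genes. From the other marker lists some genes are named, which fell, carry a sum or were at 0 or near it in the parental libraries. For BCL11B, with 3 counts or fewer in each parental library, the fold change was taken against the highest CPM of 3 counts in these libraries. It is not a strict lower bound. The code was tested on simulated counts with known changes.

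Alternatives were DESeq2 1.42.0, library totals, no filter, at least 10 counts in every library, robust moderation, the replicate number as a block, offsets for length and GC content (robust spline with 5 degrees of freedom per property and library, MASS, 15902 genes) and each library left out. Positions of promoters are those of RefSeq on GRCh38.p14.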

Additional observations from a re-analysis of the deposited data

How the results depend on the processing

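The number of SWI/SNF genes past 3-fold depended on the scaling. Scaling by library totals gave 14 up and 3 down, with 4 lower at any fold and a median log2 fold change of 1.56, and the offsets for length and GC content gave 1 up, 1 down and a median of 0.40. DESeq2 gave a median of 0.53, and leaving out 1 library gave 0.49 (without parental replicate 2) to 0.72 (without parental replicate 3). Direction turned under library totals for SMARCA4 (0.58), SMARCD3 (0.29), BCL7B (0.17), DPF2 (0.25), BRD9 (0.73) and BICRA (0.31), and with at least 10 counts in every library for BRD9 (0.0098). It turned with the offsets for SMARCA4 (0.094), SMARCC1 (-0.37), SMARCD3 (0.85), SMARCE1 (-1.53), BCL7B (1.21), BRD9 (0.47), BICRA (0.29) and BCL11A (-1.14), and for SMARCC2 over SMARCC1 (0.78), SMARCD3 over SMARCD1 (0.17), BCL7A over BCL7B (-1.16) and BRD9 over BRD7 (0.13). SS18L1 over SS18 turned under library totals (-0.0045), without the filter (-0.0052), without parental replicate 2 (-0.25) and without p85β KR-AA replicate 3 (-0.081), and ARID1B over ARID1A without parental replicate 2 (0.14, next to -0.63 without parental replicate 1). The causes were not tested. BICRA lost its call without parental replicate 1 or 3, without any 1 mutant library and under both other filters, BCL11B with DESeq2 (adjusted p = 0.0104) and without parental replicate 2 or 3 or p85β KR-AA replicate 3, SMARCC2 without p85β KR-AA replicate 3 (adjusted p = 0.0102), and SMARCD3 without p85β KR-AA replicate 1 or 2 and with at least 10 counts in every library (adjusted p = 0.0183). ACTL6A, ARID1B, DPF2, BRD7, PHF10, BICRAL and BCL11B lost theirs with the offsets. Calls as higher were gained by SMARCD1, SMARCE1, BCL7A, BCL11A and BRD9 under library totals, by SMARCD1, SMARCE1 and BCL7A with at least 10 counts in every library, and by SMARCD1 and BRD9 with the offsets, and calls as lower by SMARCE1 and BCL11A with the offsets and SMARCA4 without parental replicate 2. SMARCD3 and BCL7B passed as higher with the offsets. ARID2 and BCL11B could not be tested with at least 10 counts in every library.

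Libraries with the same replicate number did not deviate together (correlations of -0.14, 0.12 and -0.045). With the replicate number as a block, 9 SWI/SNF genes were up, 4 down, 14 higher and 7 lower, with a median of 0.66, and BICRA (-0.61, adjusted p = 0.0114) no longer passed. No other call of a SWI/SNF gene changed. Over all tested genes the block gave 4626 up and 2827 down, next to 4597 and 2825 without it. The prior degrees of freedom were infinite with the block and without the filter, and 8.32 as reported, so single p-values from those 2 fits rest on the pooled variance. At 3 counts per library, depth limited ACTL6B, DPF3 and BCL11B.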
